A study of Mus musculus with 23 samples.

Results

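The genes described here are the heat shock proteins and cytosolic chaperones of the mouse heart: 40 genes taken by their symbols, out of 55489 gene rows, and measured by poly(A) RNA sequencing of whole hearts in 2 mouse models of HFpEF, heart failure in which the ejection fraction is preserved. They comprise 8 genes of the Hsp70 family, 3 genes of the Hsp110 exchange factors, Hsp90 with its co-chaperones (6 genes), 8 J-domain proteins, 7 small heat shock proteins with their partner Bag3, 5 mitochondrial chaperones and the heat shock factors Hsf1 and Hsf2. All 40 passed the filter on low values (mean normalised count of 10 or more) and were tested in both models. A whole heart mixes cardiomyocytes with other cells, so fewer cells of a type and less RNA per cell cannot be told apart.

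The db/db+Aldo mice (n = 8, 4 females and 4 males) were Leprdb/db animals (C57BL/6J), obese and diabetic mice with a mutated leptin receptor gene. These mice carried minipumps that released d-aldosterone at 0.3 µg/h for 4 weeks from 12 weeks of age. They were set against a sham group (n = 7, 4 females and 3 males) of wild-type C57BL/6J mice with pumps that held saline with ethanol alone, on the same chow. The HFD+L-NAME group (n = 4, 2 females and 2 males) consisted of wild-type C57BL/6J mice fed a high-fat diet (60 kcal% fat) for 15 weeks from 10 weeks of age, with L-NAME, which blocks nitric oxide synthase, at 0.5 g/L in the drinking water. It was set against a chow group (n = 4, 2 females and 2 males) of wild-type mice of the same age on standard chow. Genotype and aldosterone, and likewise diet and L-NAME, came together in every treated mouse, so that their parts cannot be told apart. Each model was sequenced in its own run, and values were compared only within a run.

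Chaperones bind unfolded or partly folded proteins and release them in cycles driven by ATP or by partner proteins. In the cytosol, J-domain proteins deliver clients to Hsp70, Hsp110 proteins exchange the nucleotide of Hsp70, and Hop (Stip1) hands clients on to Hsp90. The small heat shock proteins hold clients without ATP and are abundant in heart muscle, where Cryab and Hspb7 associate with the sarcomere and Bag3 links Hspb8 to Hsp70. Heat or unfolded protein frees the transcription factor HSF1 from chaperones. HSF1 then binds heat shock elements, which are alternating repeats of GAA and TTC, and induces genes such as Hspa1a, Hspa1b, Hsph1, Dnajb1 and Hspb1, many of which also have a basal level.

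Libraries held 21214443 to 25629489 recovered counts, of which genes of the mitochondrial genome took 41.28 to 52.86% in db/db+Aldo hearts and 30.08 to 42.8% in sham hearts. Some libraries stood apart for chaperones. HFD+L-NAME replicate 2, a male, held the highest value of its group for 30 of the 40 genes, against 27.5% of all genes tested. In the db/db+Aldo group, replicate 5, also a male, held the highest value for 21 of the 40, against 24.4% of all genes. At the low end, chow replicate 2, a male, held the lowest value of its group for 28 of the 40, against 28% of all genes. HFD+L-NAME replicate 1, the other male of that group, held the lowest value for 21 of the 40, against 24.2% of all genes. In the sham group, replicates 1 and 7 had the highest values of Hspa1a and Hspa1b. Changes are differences on the log2(normalised count + 1) scale with their standard error, and an adjusted p is from limma with Benjamini-Hochberg adjustment over all genes tested in the comparison, called below 0.05. P-values weigh a difference against the spread between these hearts, which limma moderates with the spread of all genes tested.

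In db/db+Aldo hearts 19 of the 40 chaperone genes fell and 0 rose relative to sham hearts. Among all 14071 genes tested, 9.23% were called lower and 9.97% higher. The median log2 change was −0.17 over the 40 genes and −0.01 over all genes. The fallers were 6 of 6 genes of Hsp90 and its co-chaperones, 2 of 3 Hsp110 exchange factors, 5 of 8 J-domain proteins and 3 of 8 Hsp70 genes. Of the small heat shock proteins with Bag3 1 of 8 fell, of the mitochondrial chaperones 1 of 5, and of the heat shock factors 1 of 2. For 8 of the 40 genes (Hspa1a, Hsph1, Hspa4l, Hsp90aa1, Stip1, Ahsa1, Chordc1 and Dnajb1) every db/db+Aldo heart lay below every sham heart, against 1.79% of all genes tested. Of the 19 called, 17 were called under each of up to 31 alternative settings, and the exceptions were Hspa1b and Dnaja3. Scaling by total counts, which moved the median of all genes by −0.202, called 27 of the 40 lower and 0 higher, and 554 of the 5324 genes it called were higher, against 1403 of 2702 with size factors.

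**Figure D1:**
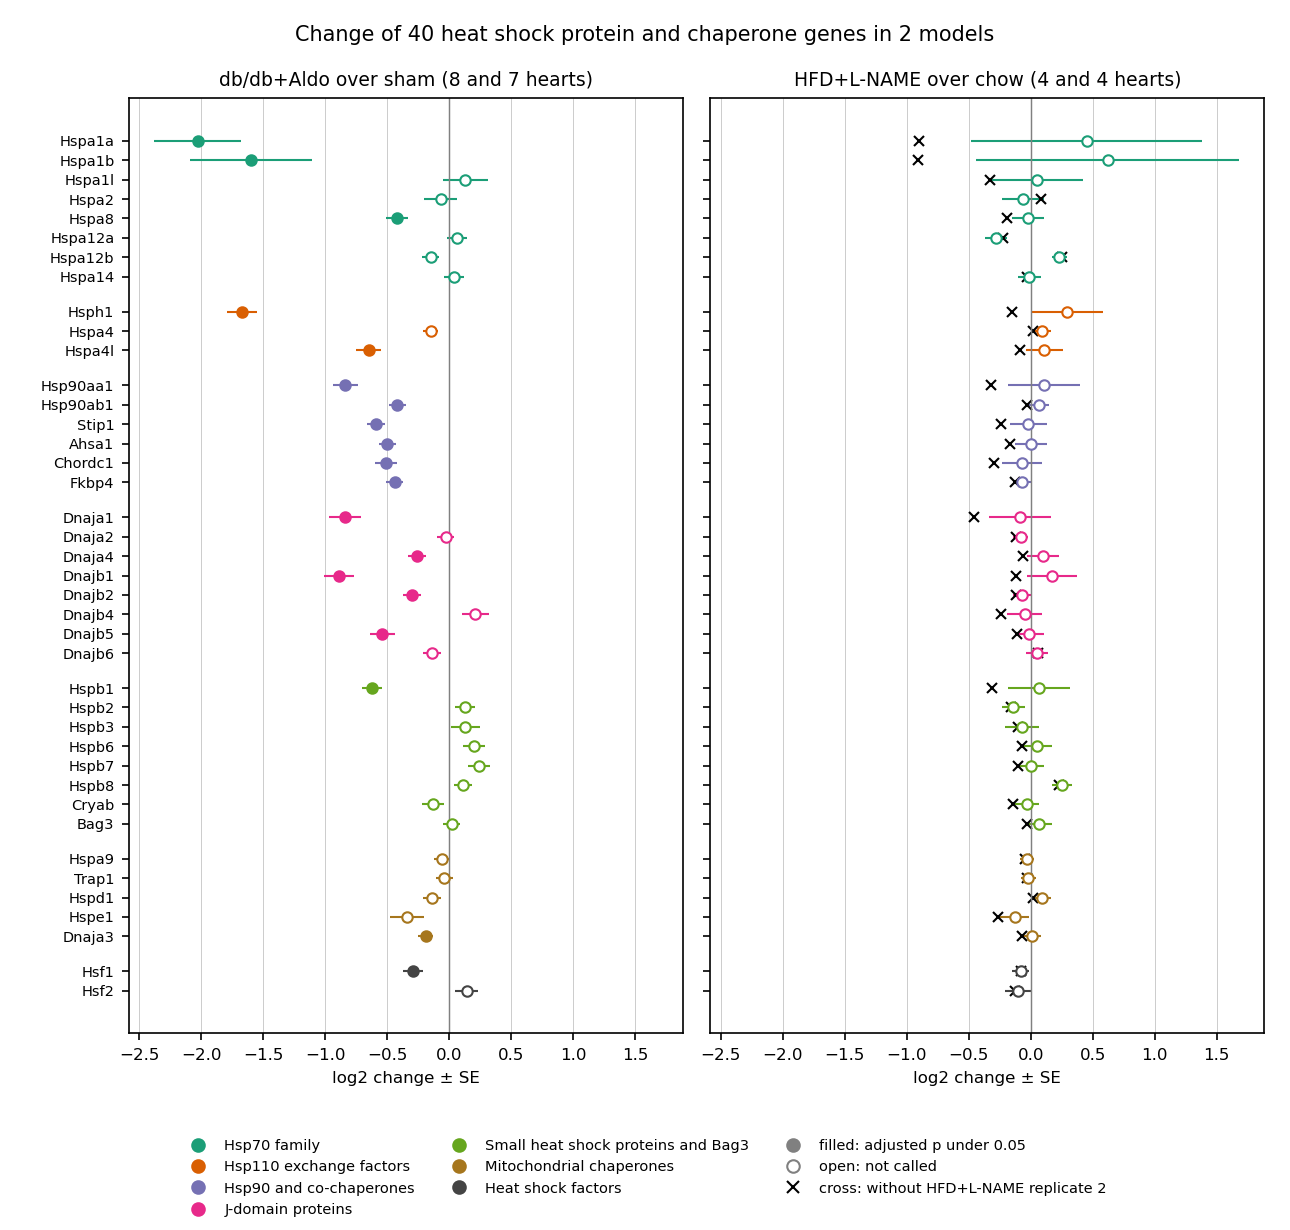
Log2 change with its standard error (x axis) of each of the 40 genes (rows, coloured by role) for db/db+Aldo over sham on the left and HFD+L-NAME over chow on the right. Filled points were called at an adjusted p under 0.05, open points were not, and crosses give the change without HFD+L-NAME replicate 2; 19 points are filled on the left, all below 0, and 0 on the right.

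The promoters of 5 genes are shown because they carry the repeats that HSF1 binds and come from genes with and without a call in db/db+Aldo hearts: Hsph1, Hspa1a, Hspb1 and Chordc1 fell, and Hspe1 was not called. Of the 2 starts RefSeq lists for Hsph1, the downstream is shown. They are RefSeq windows on GRCm38.p6 from base −120 to base 30 around the annotated transcription start, 5′ to 3′ on the strand of the gene. Capitals mark every match to GAANNTTC or TTCNNGAA on either strand, where overlapping matches run together.
Hsph1: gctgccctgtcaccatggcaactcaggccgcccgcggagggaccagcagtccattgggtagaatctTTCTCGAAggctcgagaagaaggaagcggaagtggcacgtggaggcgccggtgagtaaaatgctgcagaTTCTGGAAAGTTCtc
Hspa1a: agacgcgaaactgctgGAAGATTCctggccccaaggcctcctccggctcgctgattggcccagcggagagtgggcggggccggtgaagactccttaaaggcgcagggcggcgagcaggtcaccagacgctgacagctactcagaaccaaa
Hspb1: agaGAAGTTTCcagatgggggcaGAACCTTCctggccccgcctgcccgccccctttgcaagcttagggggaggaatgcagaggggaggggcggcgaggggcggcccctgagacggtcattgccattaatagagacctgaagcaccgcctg
Chordc1: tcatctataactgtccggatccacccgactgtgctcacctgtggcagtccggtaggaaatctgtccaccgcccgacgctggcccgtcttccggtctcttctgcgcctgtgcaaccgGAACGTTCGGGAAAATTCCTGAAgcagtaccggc
Hspe1: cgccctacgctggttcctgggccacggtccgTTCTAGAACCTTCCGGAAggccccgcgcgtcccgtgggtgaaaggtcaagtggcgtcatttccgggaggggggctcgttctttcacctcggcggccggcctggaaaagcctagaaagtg
They lie at chr5:149636286-149636435 on the minus strand for Hsph1, chr17:34972127-34972276 on the minus strand for Hspa1a, chr5:135887799-135887948 on the plus strand for Hspb1, chr9:18292147-18292296 on the plus strand for Chordc1 and chr1:55088028-55088177 on the plus strand for Hspe1. Hspb1 has separate GAANNTTC elements at −117 and −97, and Hspa1a a single one at −104. In Hsph1 TTCTGGAAAGTTC is a run of alternating units that begins at base 16 after the start, and in Chordc1 a longer run begins at −4.

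Of the 40 genes 33 had a promoter entry in the RefSeq table, which spans 250 bases before to 50 bases after each start. Hspa8, Hspa9, Hsp90aa1, Hsp90ab1, Hspb2, Cryab and Hsf1 had none. The element GAANNTTC, searched on both strands, was found for 15 of the 33 (45.5%) and for 9.04% of the 27025 genes of the table. The longer form, GAANNTTC with NNGAA directly after it, searched on both strands, was found for 5 of the 33 (15.2%), namely Hsph1, Hspd1, Hspe1, Dnajb6 and Chordc1, and for 0.662% of all genes. The windows of Hspd1 and Hspe1 overlap over 285 of 300 bases and hold the same element, which is therefore counted for both genes in each of these searches. TTCNNGAA, added after the data were seen and overlapping with the longer form, was found for 18.2% of the 33 and 9.6% of all genes. TATAAA was found for 9.09% of the 33 and 15.7% of all genes, and CCAAT for 45.5% and 41.1%. GAANNTTC was found for 8 of the 15 fallers with an entry in db/db+Aldo hearts and for 7 of the 18 genes not called, and the longer form for 2 of 15 and 3 of 18. The windows of Hspa1a and Hspa1b are identical at 296 of 300 positions (98.7%). These are matches of letters in a window, and binding was not measured.

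Among the Hsp110 exchange factors, Hsph1, which encodes Hsp105, showed the smallest adjusted p of the 40 genes. Its normalised count was 280.2 at the lowest, 411 at the median and 489 at the highest in the 8 db/db+Aldo hearts, against 951, 1348 and 1654 in the 7 sham hearts. The highest db/db+Aldo heart thus lay below the lowest sham heart, and the log2 change was −1.67 ± 0.12 (adjusted p = 5.51e-08), a fitted change of −68.5%. Hspa4l, the Apg-1 exchange factor, had 516, 728 and 869 counts (lowest, median, highest) in db/db+Aldo hearts, against 949, 1065 and 1353 in sham hearts, again without overlap (log2 change −0.65 ± 0.10, adjusted p = 0.000193). Hspa4, the constitutive Apg-2 factor, averaged 2558 ± 169 counts in db/db+Aldo hearts and 2839 ± 224 in sham hearts (SD, n = 8 and 7) and was not called (log2 change −0.15 ± 0.06, adjusted p = 0.093).

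In the Hsp70 family the stress-inducible genes and the abundant constitutive Hsc70 fell. Hspa1a had 9.32, 13 and 15.4 counts (lowest, median, highest) in db/db+Aldo hearts, against 21.9, 39.8 and 166 in sham hearts. All db/db+Aldo hearts lay below all sham hearts, which themselves spread widely, with 154 in replicate 1 and 166 in replicate 7 (log2 change −2.03 ± 0.35, adjusted p = 0.000487). Its neighbour Hspa1b had 16.9, 26.5 and 38.6 counts in db/db+Aldo hearts, against 22.8, 53.9 and 395 in sham hearts, where replicates 1 and 7 held 395 and 336. These groups overlapped, and the call (log2 change −1.60 ± 0.49, adjusted p = 0.0274) ended without sham replicate 1 (−1.20, adjusted p = 0.0717), replicate 5 (−1.55, 0.059) or replicate 7 (−1.23, 0.0545). In all it ended under 8 of 31 alternatives, among them without the 5 libraries in doubt (sham 1 and 7, db/db+Aldo 1 and 5, HFD+L-NAME 3) (−0.69, adjusted p = 0.147), where Hspa1a was still called, with a log2 change of −1.37. These 5 include sham replicates 1 and 7, the highest sham hearts for both genes, and the grounds for the doubt are not given here. Of the 100-base windows in Hspa1a transcripts, 47.1% also occur in Hspa1b, so the split of reads between the 2 genes is uncertain.

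Hspa8, which encodes Hsc70, had 15228, 17526 and 23852 counts (lowest, median, highest) in db/db+Aldo hearts, against 19699.6, 25127 and 26973 in sham hearts. Of the 8 db/db+Aldo hearts 7 lay below all sham hearts, the exception being replicate 5 with 23852 (log2 change −0.42 ± 0.09, adjusted p = 0.00245). Of the 100-base windows of Hspa8, 28.5% also occur in other genes. The other Hsp70 genes were not called. Their log2 changes were 0.13 ± 0.18 for Hspa1l, −0.07 ± 0.13 for the testis-enriched Hspa2, 0.06 ± 0.08 for Hspa12a, −0.15 ± 0.07 for the endothelial Hspa12b and 0.04 ± 0.08 for the ribosome-associated Hspa14. Hspa1l overlaps the antisense gene Gm10501 over 71.9% of its exon length, and the use of strand in counting is not given in the sources used here.

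Hsp90 and its listed co-chaperones fell together. Hsp90aa1, the inducible Hsp90 gene, had 1069, 1455 and 1703 counts (lowest, median, highest) in db/db+Aldo hearts, against 1813, 2738 and 2940.4 in sham hearts, with no overlap (log2 change −0.84 ± 0.10, adjusted p = 1.62e-05). Other genes share 38% of its windows, and the closest, Gm12346, averaged 17.1 counts in db/db+Aldo hearts and 26.4 in sham hearts. Hsp90ab1, the constitutive gene, had 19164, 19778 and 24213 counts in db/db+Aldo hearts, against 22155, 27968 and 31760.2 in sham hearts. It is far more abundant and fell less on the log2 scale (−0.42 ± 0.07, adjusted p = 0.000552), and only db/db+Aldo replicate 5 with 24213 lay within the sham range.

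Stip1, the Hop protein that bridges Hsp70 and Hsp90, had 1462, 1701 and 1970.0 counts (lowest, median, highest) in db/db+Aldo hearts, against 2254, 2411 and 2912 in sham hearts (log2 change −0.59 ± 0.07, adjusted p = 1.91e-05). Ahsa1, the Aha1 activator of the Hsp90 ATPase, had 748, 804 and 1026 counts in db/db+Aldo hearts, against 1054, 1157 and 1331 in sham hearts (−0.50 ± 0.07, adjusted p = 8.15e-05). Chordc1, the Hsp90-binding protein morgana whose promoter holds the longest run of elements shown above, had 384, 498 and 554 counts in db/db+Aldo hearts, against 577, 680.3 and 822 in sham hearts (−0.51 ± 0.09, adjusted p = 0.000522). In each of these 3 genes the groups did not overlap. Fkbp4, the Fkbp52 immunophilin that joins Hsp90 in steroid receptor complexes, had 3510.4, 4062 and 5284 counts in db/db+Aldo hearts, against 4866, 5757 and 6193 in sham hearts. Replicate 5 was again the db/db+Aldo heart that overlapped with sham (log2 change −0.44 ± 0.07, adjusted p = 0.000332).

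Of the J-domain proteins, the partners that stimulate the Hsp70 ATPase, 5 of 8 fell. Dnajb1, the inducible Hsp40, had 172, 202 and 254 counts (lowest, median, highest) in db/db+Aldo hearts, against 303, 354 and 554 in sham hearts, with no overlap (log2 change −0.89 ± 0.12, adjusted p = 5.10e-05). Dnaja1 had 405, 463 and 645 counts in db/db+Aldo hearts, against 590.1, 879 and 1208 in sham hearts, where db/db+Aldo replicate 6 with 645 overlapped (−0.84 ± 0.13, adjusted p = 0.000136). Dnajb5 had 1462, 1733 and 2363 counts in db/db+Aldo hearts, against 1923, 2687 and 2932 in sham hearts, and 5 of the 8 db/db+Aldo hearts lay below all sham hearts (−0.54 ± 0.10, adjusted p = 0.00113).

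The falls of Dnajb2 and Dnaja4 were smaller. Dnajb2, enriched in neurons and skeletal muscle, had 1038, 1152 and 1331 counts (lowest, median, highest) in db/db+Aldo hearts, against 1299.9, 1376 and 1566 in sham hearts (log2 change −0.30 ± 0.07, adjusted p = 0.0042). Dnaja4 had 733, 755 and 875 counts in db/db+Aldo hearts, against 753, 956 and 1011 in sham hearts, with broad overlap from sham replicate 6 at 753 (−0.26 ± 0.07, adjusted p = 0.0103). Wdr61 lies on the opposite strand over 44.1% of the exon length of Dnaja4, so its count may hold reads of that gene. Dnaja2, Dnajb4 and Dnajb6 were not called, with log2 changes of −0.03 ± 0.07, 0.21 ± 0.11 and −0.14 ± 0.07. Without the 5 libraries in doubt Dnajb4 was called higher (0.34, adjusted p = 0.0357).

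Of the small heat shock proteins and Bag3, Hspb1 alone was called. Hspb1, which encodes Hsp25, had 1878, 2006 and 3051 counts (lowest, median, highest) in db/db+Aldo hearts, against 2839, 3268 and 3638 in sham hearts. Replicate 5 with 3051 was the only db/db+Aldo heart within the sham range (log2 change −0.62 ± 0.08, adjusted p = 4.33e-05). The other small heat shock proteins and Bag3, a co-chaperone of muscle, were not called. Their log2 changes were 0.24 ± 0.09 for Hspb7 (adjusted p = 0.0568), 0.20 ± 0.09 for Hspb6 (0.107), 0.13 ± 0.08 for Hspb2, 0.13 ± 0.12 for Hspb3, 0.11 ± 0.07 for Hspb8, 0.02 ± 0.07 for Bag3 and −0.13 ± 0.09 for Cryab. Hspb7, a cardiac and muscle protein, averaged 59410.0 ± 3186 counts in db/db+Aldo hearts and 50544 ± 7986 in sham hearts (SD, n = 8 and 7), and it was called higher under 8 of the alternatives. Cryab averaged 26908 ± 3368 counts in db/db+Aldo hearts and 29204 ± 3335 in sham hearts. Hspb2 and Cryab lie head to head and overlap over 252 bases, and 44% of the windows of Hspb1 also occur in other genes, mainly the pseudogene Hsp25-ps1 (means of 11.7 counts in db/db+Aldo hearts and 14.6 in sham hearts).

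Of the mitochondrial chaperones only the J-domain protein Dnaja3 (Tid1) was called. It had 1955, 2083 and 2356 counts (lowest, median, highest) in db/db+Aldo hearts, against 2241, 2416 and 2609 in sham hearts (log2 change −0.19 ± 0.06, adjusted p = 0.0242). The call ended without sham replicate 1 (adjusted p = 0.0538), sham replicate 5 (0.057), db/db+Aldo replicate 8 (0.06) or the 5 libraries in doubt (0.072). Hspe1, the Hsp10 lid of the Hsp60 chamber, had a log2 change of −0.34 ± 0.14 (adjusted p = 0.0938), and its partner Hspd1 (Hsp60), which overlaps it on the opposite strand over 112 bases, had one of −0.14 ± 0.07 (0.209). Hspe1 was called lower without db/db+Aldo replicate 5 (−0.41, adjusted p = 0.0205) or replicate 7 (−0.42, 0.0344). Hspa9 (mortalin) and Trap1, the mitochondrial Hsp70 and Hsp90, had log2 changes of −0.06 ± 0.06 and −0.04 ± 0.07. Neither differed beyond the spread between hearts.

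Of the heat shock factors themselves, Hsf1 fell and Hsf2 was not called. Hsf1 had 676, 771 and 958 counts (lowest, median, highest) in db/db+Aldo hearts, against 848, 916 and 1146 in sham hearts, and 6 of the 8 db/db+Aldo hearts lay below all sham hearts (log2 change −0.29 ± 0.08, adjusted p = 0.0163). Hsf2 averaged 247 ± 32 counts in db/db+Aldo hearts and 224 ± 14.2 in sham hearts (SD, n = 8 and 7) and was not called (0.14 ± 0.09, adjusted p = 0.292). Without db/db+Aldo replicate 5, the lowest at 179, Hsf2 was called higher (0.20, adjusted p = 0.0418). The activity of HSF1 is set mainly by the state of the protein, which these data do not measure.

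**Figure D2:**
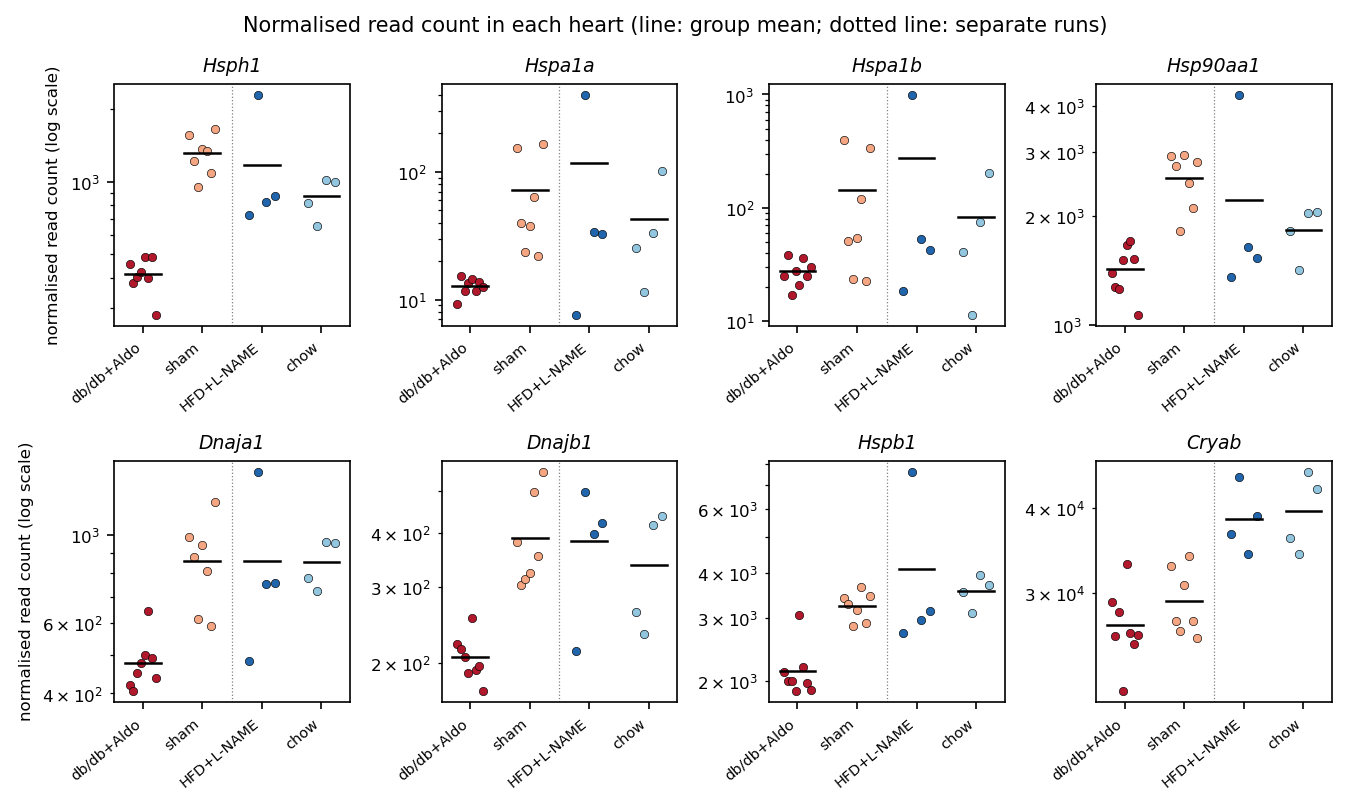
Normalised read count on a log axis in each heart (points) for 8 genes, with the group mean as a line; the groups db/db+Aldo (n = 8), sham (n = 7), HFD+L-NAME (n = 4) and chow (n = 4) run from left to right, and the dotted line parts the 2 runs. The db/db+Aldo hearts lie below all sham hearts for Hsph1, Hspa1a, Hsp90aa1 and Dnajb1, and 1 HFD+L-NAME heart lies above the rest of its run for every gene but Cryab.

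The members differ widely in level, and the 19 fallers ranged from Hspa1a to Hsp90ab1, with the 3 genes above and the 2 genes below that range not called. Per kb of exon, Cryab was the highest of the 40 in sham hearts at 19746 ± 2255 normalised counts (SD, n = 7), next to Hspb7 at 18254 ± 2884, from which it did not differ beyond the spread. Hspb6 followed at 12542 ± 1811, Hsp90ab1 at 9032 ± 1127 and Hspa8 at 5526 ± 676. The lowest were Hspa1a at 24.4 ± 20.7, Hsf2 at 23.3 ± 1.48 and Hspa1l at 16.1 ± 4.37. The wide spread of Hspa1a covers both of the others, while the means of Hsf2 and Hspa1l lie farther apart than either of their SDs. The 40 genes together took 0.922 ± 0.0875% of all counts in db/db+Aldo hearts and 1.11 ± 0.0709% in sham hearts (SD, n = 8 and 7). Of the counts outside the mitochondrial genome they took 1.73 ± 0.0894% in db/db+Aldo hearts and 1.83 ± 0.132% in sham hearts.

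**Figure D3:**
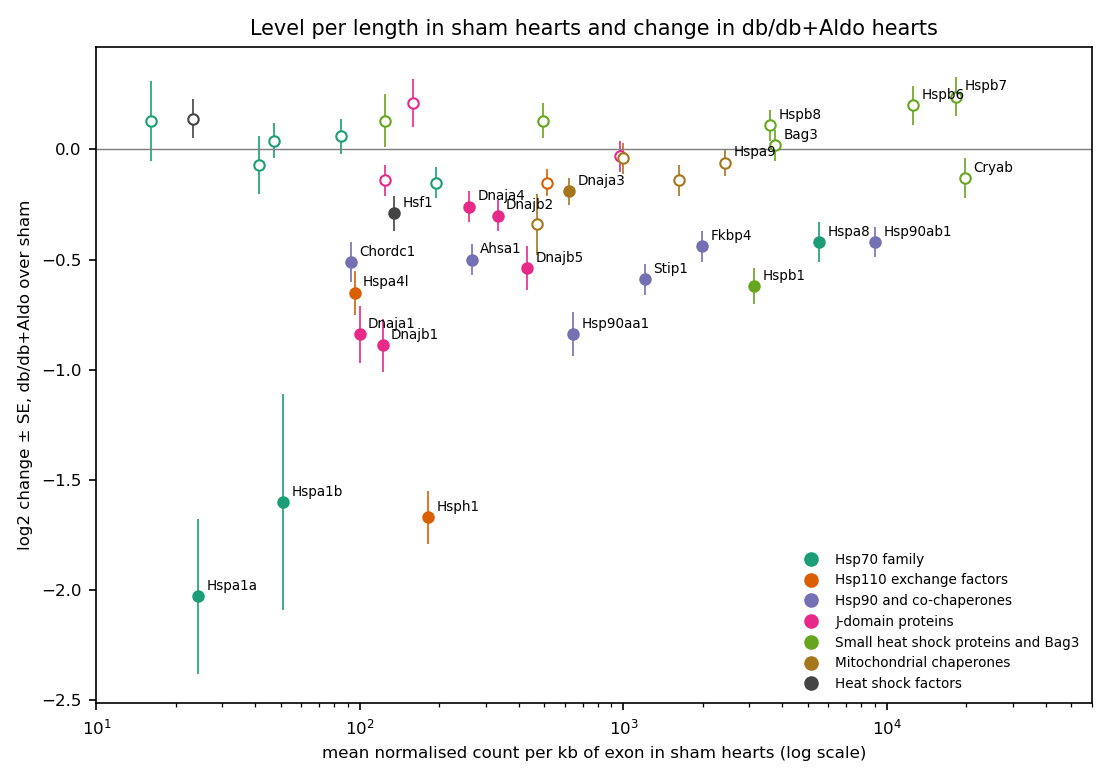
Mean normalised count per kb of exon in sham hearts (x axis, log scale, n = 7) against the log2 change with its standard error in db/db+Aldo over sham (y axis) for the 40 genes, coloured by role. Filled points were called; they range from Hspa1a at 24.4 to Hsp90ab1 at 9032 counts per kb, and the 3 genes of the highest level, Cryab, Hspb7 and Hspb6, are open.

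In HFD+L-NAME hearts limma called 0 of the 40 chaperone genes at an adjusted p under 0.05, and limma voom also called 0. At an unadjusted p under 0.05 there were 3, namely Hspa12b, Hspb8 and Hspa12a. Among all 13751 genes tested, 1.18% were called higher and 1.00% lower. The median log2 change was −0.01 over the 40 genes and 0 over all genes, with a range of −0.28 to 0.62. Hspb8, the partner of Bag3, had 13606, 12781, 12436 and 11801 counts in HFD+L-NAME hearts and 10204, 9158, 11718 and 11513 in chow hearts. All 4 HFD+L-NAME hearts lay above all chow hearts, as for 3.97% of all genes, while 0 of the 40 genes lay below all chow hearts, as for 4.23% of all genes. It was the only gene of the 40 without overlap, and the change was not called (log2 change 0.25 ± 0.08, adjusted p = 0.135). Hspa12b averaged 770.1 ± 61.3 counts in HFD+L-NAME and 658 ± 67.7 in chow hearts (0.23 ± 0.06, adjusted p = 0.0984), and Hspa12a averaged 572 ± 88.8 and 688 ± 35.8 (−0.28 ± 0.09, adjusted p = 0.153; SD, n = 4 each).

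The HFD+L-NAME group was split by its replicate 2, in which the inducible chaperones were high. Hsph1 had 730.0, 2284, 827 and 871 counts in HFD+L-NAME replicates 1 to 4 and 818, 653, 1018 and 999 in chow replicates 1 to 4. Hspa1a had 7.6, 396, 33.6 and 32.9 counts in HFD+L-NAME and 25.4, 11.4, 33.3 and 101 in chow hearts. Replicate 2 exceeded the mean of the other 3 HFD+L-NAME hearts 16-fold for Hspa1a and 2.82-fold for Hsph1. For Hspa1b the ratio was 25.7, with 980.3 counts in replicate 2 against 38.1 ± 17.9 in the others (SD, n = 3).

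The same heart was high for Hsp90aa1, with 1357, 4279, 1643 and 1532 counts in HFD+L-NAME replicates 1 to 4 and 1812, 1419, 2035 and 2052 in chow hearts. Hspb1 had 2730.0, 7585, 2954 and 3140.2 counts in HFD+L-NAME and 3524, 3096, 3941 and 3705 in chow hearts. Dnaja1 had 483, 1438, 751 and 758 counts in HFD+L-NAME and 779, 721, 961 and 953 in chow hearts. In these genes replicate 2 was the highest of the 8 hearts of its run and none of the other 3 HFD+L-NAME hearts exceeded the highest chow heart. Replicate 2 was the highest of the 8 for 24 of the 40 genes (60%), against 16.6% of all genes tested. By role these were 3 of 3 Hsp110 factors, 5 of 6 genes of Hsp90 and its co-chaperones, 5 of 8 J-domain proteins, 4 of 8 Hsp70 genes, 4 of 8 small heat shock proteins with Bag3, 3 of 5 mitochondrial chaperones and 0 of 2 heat shock factors.

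Without replicate 2, 3 of the 40 genes were called lower in HFD+L-NAME hearts and 0 higher, against 1.00% of all 13767 genes called lower. They were Dnaja1 (log2 change −0.46 ± 0.08, adjusted p = 0.00953), Hspb1 (−0.31 ± 0.06, adjusted p = 0.0299) and Stip1 (−0.24 ± 0.06, adjusted p = 0.0441). With all 4 hearts, these changes were −0.09 ± 0.25, 0.07 ± 0.25 and −0.02 ± 0.15. Of the 40 genes 34 lay below 0 without replicate 2, with a median of −0.12, against −0.001 over all genes. Replicate 2 stood out by its high values of these same genes, so leaving it out lowers most of their changes by itself. These calls and counts are therefore not separate evidence of a fall in the HFD+L-NAME group. Values for other gene lists in this heart did not all follow. This heart was the highest of the 8 for 16.6% of all genes tested. Among relatives of the chaperones it was so for 7 of 14 genes of the CCT chaperonin and prefoldin and 8 of 22 other Hsp90 and Hsp70 co-chaperones. The same held for 6 of 23 other J-domain proteins and 6 of 16 non-chaperone genes often used as HSF1 targets. For 5 of 8 macrophage markers it was also the highest. The counts were 4 of 23 immediate early genes and 3 of 19 clock genes, near the share of all genes, and 0 of 9 endothelial markers. The part of these in the result was not tested.

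**Figure D4:**
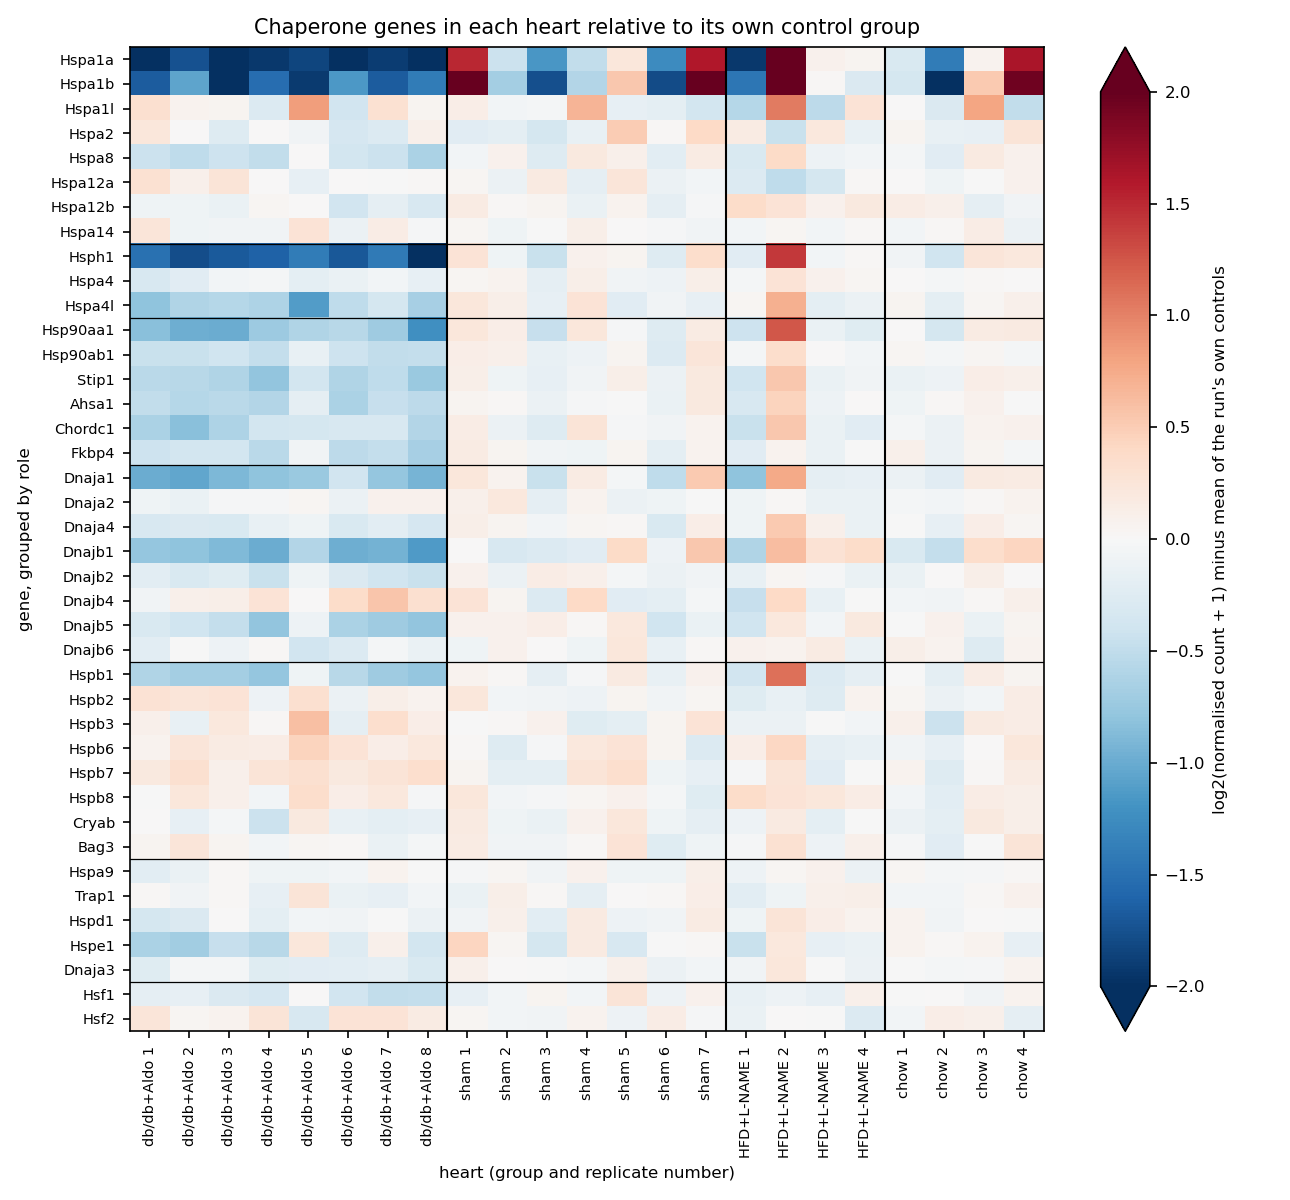
Each cell is the log2(normalised count + 1) of a gene (rows, grouped by role) in a heart (columns) minus the mean of the control group of its own run, from blue (lower) to red (higher), with the colour scale ending at −2 and 2. The db/db+Aldo columns are blue for Hsph1, Hspa1a and Hsp90 with its co-chaperones, the column of HFD+L-NAME replicate 2 is red for the same rows, and sham replicates 1 and 7 are red for Hspa1a and Hspa1b.

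The treatment effects of the models were set against each other, each within its own run. In the difference of the effect in db/db+Aldo minus the effect in HFD+L-NAME, 8 of the 40 genes were called lower and 0 higher, against 2.38% and 3.14% of 13960 genes tested. The largest called difference was that of Hsph1 (−1.95 ± 0.30, adjusted p = 0.000244). The others were Dnajb1 (−1.04 ± 0.27), Hsp90aa1 (−0.95 ± 0.28), Hspa4l (−0.77 ± 0.20), Stip1 (−0.57 ± 0.16), Ahsa1 (−0.50 ± 0.14), Hsp90ab1 (−0.49 ± 0.12) and Hspa12b (−0.39 ± 0.11), with adjusted p between 0.0141 and 0.0454. Without HFD+L-NAME replicate 2 only Hsph1 was called (−1.56 ± 0.22, adjusted p = 0.000146), where 548 of 13966 genes were called, 316 of them higher. Without HFD+L-NAME replicate 1 the count was 12, where 609 of 13969 genes were called, 345 of them higher. Hspa1a had a difference of −2.46 ± 0.95, which was not called (adjusted p = 0.133).

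Females and males were compared within each group and in their response. In db/db+Aldo against sham hearts, 14 of the 40 genes were called lower in females (2.72% of all genes) and 12 in males (2.39% of all genes), and 0 higher in either. Hsph1 fell by 1.65 ± 0.17 on the log2 scale in females and by 1.68 ± 0.18 in males. The sex by treatment difference was called for 0 of the 40 in that model (0 of 14071 genes, that is 0%), and 0 of the 40 had an unadjusted p under 0.05. In the HFD+L-NAME model it was called by limma for 0 of the 40 (0.00727% of genes), while 5 had an unadjusted p under 0.05. Among these was Hspb6 with −0.66 ± 0.16 (adjusted p = 0.35), and with −0.52 ± 0.14 without replicate 2 (adjusted p = 0.465). The HFD+L-NAME males are replicates 1 and 2 alone, so that leaving out either leaves 1 male heart, assumed to vary like the other groups. Without replicate 1, where that heart is replicate 2, the difference of Hsph1 was −1.89. Replicate 2 was singled out for high values of these same genes, so this value is not separate evidence of a difference between sexes. Without replicate 2, Hsph1 had a difference of −0.25, and Hspa1a, Stip1, Chordc1, Dnaja1 and Dnajb1 turned sign. In that model the males were called for Hspb8 (0.45 ± 0.08, adjusted p = 0.029, 0.611% of all genes called higher) and the females for 0 genes of the 40 (0.495% of all genes called). The change of Hspb8 in males was 0.49 (adjusted p = 0.0435) without replicate 2 and 0.40 (adjusted p = 0.0509) without replicate 1, where 15 of the 40 were called higher in males, against 1.31% of all genes. Differences of female minus male within a group were called for 0 of the 40 in each of the 4 groups, against 0.0569% of all genes in db/db+Aldo, 0.0640% in sham, 0.255% in HFD+L-NAME and 0.109% in chow hearts.

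Relatives of these chaperones were read as lists chosen with earlier results known. In db/db+Aldo against sham hearts, 9.97% of all genes tested were called higher and 9.23% lower. In db/db+Aldo hearts, other Hsp90 and Hsp70 co-chaperones gave 6 lower and 2 higher of 22 tested (median log2 change −0.14, against −0.01 over all genes). The muscle myosin chaperone Unc45b fell by 0.58 on the log2 scale, with a mean of 2091 ± 306 counts in db/db+Aldo hearts and 3090.3 ± 279 in sham hearts (adjusted p = 0.000136), and Ahsa2 fell by 0.53 (adjusted p = 0.000421). Fkbp5, an immunophilin induced by steroid receptors, went the other way, with 609 ± 116 and 302 ± 84.2 counts (1.04 ± 0.15, adjusted p = 5.41e-05; SD, n = 8 and 7). Of the cytosolic chaperonin CCT and prefoldin 3 of 14 fell and 0 rose (median −0.14), namely Cct4 (−0.22 ± 0.06), Cct3 (−0.26 ± 0.07) and Cct6a (−0.25 ± 0.07). Of 23 other J-domain proteins 1 fell, Dnajc21 (−0.29 ± 0.09).

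Lists for other compartments and for other HSF1 targets were read in the same way, beside 9.97% of all genes called higher and 9.23% lower. A list with few calls lies near these shares. Of 20 chaperones of the endoplasmic reticulum 3 fell and 1 rose in db/db+Aldo hearts (median −0.02). Among the fallers were Sdf2l1 (−0.79 ± 0.23) and Hyou1 (−0.32 ± 0.10), and the riser was Herpud1 (0.40 ± 0.10), which serves in degradation of misfolded protein. Of 14 mitochondrial co-chaperones and proteases 2 rose, Clpx (0.37 ± 0.08) and Spg7 (0.29 ± 0.08), and 0 fell. Of 16 non-chaperone genes often used as HSF1 targets 7 rose and 2 fell (median 0.17). The 3 called with the smallest p were Hmox1, which encodes heme oxygenase (0.87 ± 0.13), the stress-induced mTOR inhibitor Ddit4 (1.11 ± 0.17) and Gadd45b (1.33 ± 0.22), all higher. Many of these genes answer to other stress and steroid pathways too.

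In HFD+L-NAME hearts the related lists gave few calls, where 1.18% of all genes were called higher and 1.00% lower. Among the endoplasmic reticulum chaperones, all 20 lay below 0 with a median of −0.16, and 1 was called, Herpud1 (−0.34 ± 0.07, adjusted p = 0.0277). The CCT and prefoldin list, the other co-chaperones, the other J-domain proteins, the mitochondrial list and the non-chaperone HSF1 targets gave 0 called by limma, with 1, 1, 4, 2 and 0 genes at an unadjusted p under 0.05. The cold-inducible RNA-binding protein Cirbp, which rises when body temperature is low, averaged 339 ± 46.6 counts in db/db+Aldo hearts and 286 ± 34.4 in sham hearts (0.25 ± 0.10, adjusted p = 0.0763). In the diet model Cirbp averaged 192 ± 27.6 counts in HFD+L-NAME and 247 ± 22.1 in chow hearts (−0.37 ± 0.12, adjusted p = 0.14; SD, n = 4 each), with its lowest value, 155, in replicate 2. Cirbp was not called in either model alone. In the db/db+Aldo effect minus the HFD+L-NAME effect it was called higher (log2 difference 0.62), as were 3.14% of all genes. Rbm3 was not analysed here.

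**Figure D5:**
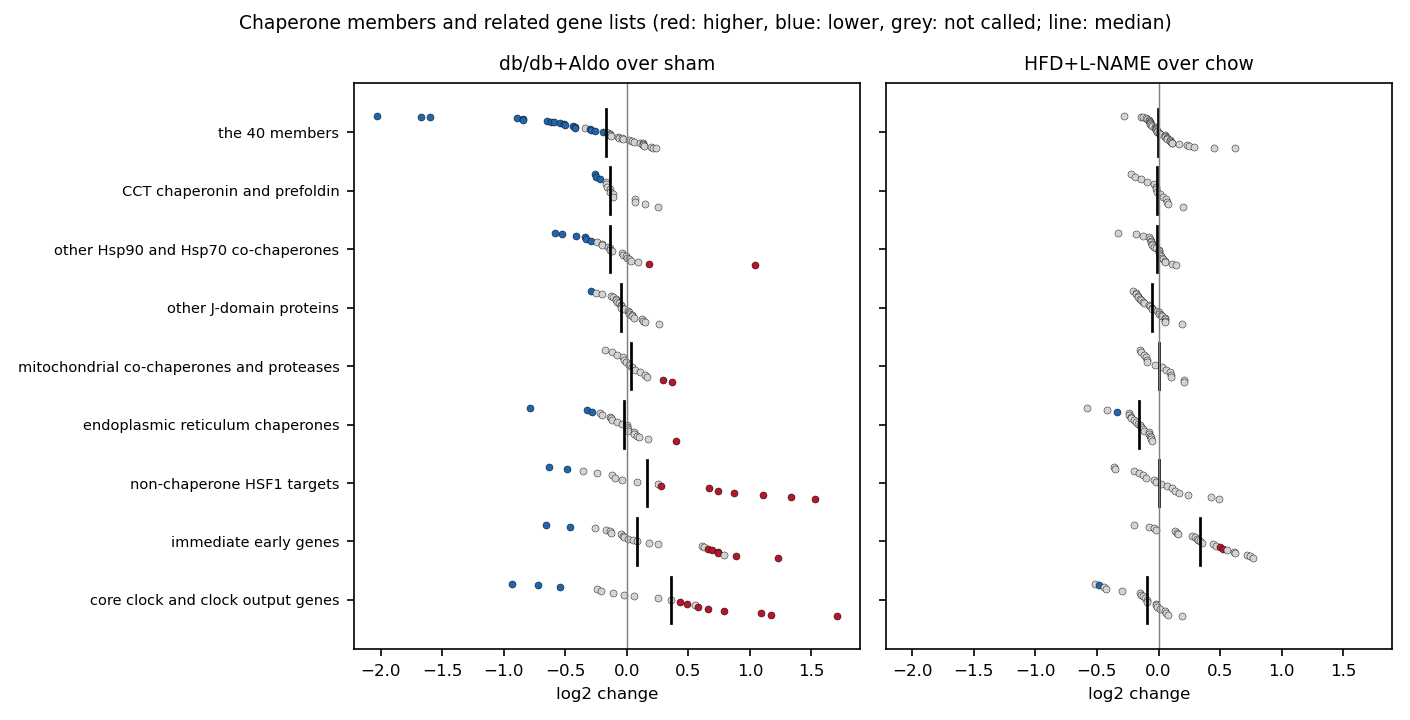
Log2 change (x axis) of the 40 chaperone genes and of the genes in 8 related lists (rows, 1 point a gene) for db/db+Aldo over sham on the left and HFD+L-NAME over chow on the right, with the median of each list as a line. Red points were called higher, blue points lower and grey points were not called; on the left the 40 genes hold 19 blue and 0 red points, while the non-chaperone HSF1 targets hold 7 red and 2 blue.

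Other genes moved with the chaperones in db/db+Aldo hearts, where 9.97% of all genes were called higher and 9.23% lower. In HFD+L-NAME hearts these shares were 1.18% and 1.00%. Of 19 clock genes 8 rose and 3 fell, led by Ciart (1.17 ± 0.15), Per1 (1.09 ± 0.17) and Bmal1 (−0.93 ± 0.16). Of 23 immediate early genes 6 rose and 2 fell, led by the risers Zfp36 (0.89 ± 0.13), Dusp1 (0.74 ± 0.11) and Maff (0.69 ± 0.11). In HFD+L-NAME hearts 1 clock gene, Hlf, fell (−0.48 ± 0.10), and the immediate early genes Btg2 (0.50 ± 0.10) and Fosl2 (0.52 ± 0.11) rose. Hour of collection is not given in the sources used here, and the part of clock or handling genes in the chaperone result was not tested.

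Markers of cell types were read in the same way. Of all genes, 9.97% were called higher and 9.23% lower in db/db+Aldo hearts, and 1.18% and 1.00% in HFD+L-NAME hearts. A marker list with few calls in db/db+Aldo hearts lies near these shares. Of 8 cardiomyocyte markers 1 fell in db/db+Aldo hearts, Myh6 (−0.34 ± 0.10), and their summed counts ranged from 1059926 to 1258722 in db/db+Aldo and from 1115885 to 1422347 in sham hearts. Of 8 fibroblast markers 5 rose and 0 fell, with sums of 39459 to 44038 in db/db+Aldo and 30948 to 36592 in sham hearts. Of 8 macrophage markers 2 rose, with sums of 5291 to 7463 in db/db+Aldo and 4147 to 6338 in sham hearts. Of 7 tested smooth muscle and pericyte markers 1 fell, Acta2 (−1.77 ± 0.18), with sums of 14613 to 16653 in db/db+Aldo and 17639.5 to 19899 in sham hearts. Both adipocyte markers tested fell, Cfd (−3.91 ± 0.54) and Plin1 (−1.74 ± 0.58), with a median of −2.82. The adipocyte markers summed to 2.12 to 50.5 counts in db/db+Aldo and 23.6 to 212 in sham hearts, and all 7 of them averaged under 10 counts in db/db+Aldo hearts. Endothelial markers gave 1 riser and 1 faller of 9, and those of skeletal muscle, red blood cells and Schwann cells gave 0 called by limma, with 1, 2 and 0 at an unadjusted p under 0.05. In HFD+L-NAME hearts the called markers were Tie1, Adgre1, Cd68 and Slc4a1, all higher, and Sox10, lower. Red blood cell markers summed to 9963 to 21653 counts in HFD+L-NAME and 5021 to 13299 in chow hearts. The part of these cells in the chaperone result was not tested.

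The authors' own fit is set beside these values. In the authors' deposited table for db/db+Aldo against sham, 19 of the 40 genes have an adjusted p under 0.05 with a lower value and 1, Hspb7, with a higher value (log2 fold change 0.23 ± 0.08, adjusted p = 0.0318). Of all 16563 genes with an adjusted p there, 3109 are under 0.05 in either direction, and 9.09% are under 0.05 with a lower value. For Hsph1 the authors' deposited table gives a log2 fold change of −1.66 ± 0.12, and for Hspa1a one of −2.50 ± 0.46. For HFD+L-NAME against chow, the authors' deposited table has 0 of the 40 under 0.05, with Hsph1 at a log2 fold change of 0.43 ± 0.42 (adjusted p = 0.837). Of all 14130 genes with an adjusted p there, 359 are under 0.05, and 1.26% are so with a lower value. That table gives no adjusted p for Hspa1a (log2 fold change 1.46 ± 1.21) and Hspa1b (1.73 ± 1.34).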

How the data were processed

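Poly(A) RNA of whole hearts was sequenced in 23 libraries, in 2 runs. Per the submitters' processing notes, the authors used featureCounts, DESeq2 and limma with the builds GRCm38 and mm10. Aligner, gene models and strand setting were not given in the sources used here. Of the files, the main table is a batch-corrected score that the authors deposited: each value is a whole count minus a shift per gene and run, so 10.2% of values lie below 0. The authors' deposited result tables give the mean signal per gene (counts over size factors), log2 fold changes with their errors, a test score, and p-values with their adjusted p-values. From the differences within a run and these means, whole counts were recovered for 52241 genes, with 99.98% and 100% of the lowest counts whole in the 2 runs within 0.001; 3244 genes and 4 rows with repeated IDs were left out. These recovered counts over size factors were used where normalised deposited values had been planned.

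Within each model, limma 3.58.1 (R 4.3.3, variance trend, sex as a covariate) was fitted to log2(normalised count + 1) for genes with a mean of at least 10, with Benjamini-Hochberg adjustment at 0.05, after a test of the scripts on simulated data. The difference between models was fitted on both runs with each effect taken within its run. Tables, promoter searches and figures used Python 3.11.15 and GENCODE M21. Depth limits the genes with few counts, such as Hspa1a. Alternatives were other pseudocounts, filters, scalings, limma settings and covariates, and leaving out each library. In the diet model, deviations of hearts with the same number correlated at 0.28, 0.12, 0.2 and 0.39 for replicates 1 to 4. Only replicates 3 and 4 correlated best with their own number. Same numbers also share sex, which was not removed from these deviations, so whether the numbers pair the hearts is not settled. The main fit did not pair them, and the replicate block was an alternative. All 40 genes are named, with full values for those called; each related list names the 3 called genes with the smallest p, and Cirbp. The members and lists were chosen with earlier results of these data known. The authors' tables by sex were not used here.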

Additional observations from a re-analysis of the deposited data

Results flagged for a closer look

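Single hearts far from the rest of their group were found 19 times in 160 groups of values examined, at Dixon's 95% critical value, which for normally distributed values flags about 1 in 20 groups by chance. HFD+L-NAME replicate 2 held 6 of these, with 396 normalised counts of Hspa1a, 980.3 of Hspa1b, 2284 of Hsph1, 4279 of Hsp90aa1, 27144 of Hsp90ab1 and 7585 of Hspb1, each the highest of its group. In the db/db+Aldo group, replicate 5 held 7, with the highest values of Hspa8 (23852), Hsp90ab1 (24213), Ahsa1 (1026), Fkbp4 (5284), Hspb1 (3051) and Trap1 (3055) and the lowest of Hsf2 (179). The others were Dnaja1 at 645 in db/db+Aldo replicate 6, Bag3 at 11312 in db/db+Aldo replicate 2, Hspa1l at 62.4 in sham replicate 4 and Hspb2 at 482 in sham replicate 1, each the highest. In the chow group Dnajb6 at 632 in replicate 3 and Hspb3 at 62.6 in replicate 2 were the lowest.

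The treatment effect in db/db+Aldo minus that in HFD+L-NAME was called by limma for 8 genes, and all 8 differences were below 0. On the log2 scale they were −1.95 for Hsph1, −1.04 for Dnajb1, −0.95 for Hsp90aa1, −0.77 for Hspa4l, −0.57 for Stip1, −0.50 for Ahsa1, −0.49 for Hsp90ab1 and −0.39 for Hspa12b. Of these, Hsph1 was called under each of 30 alternatives. Run and model coincide and cannot be told apart.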

How the results depend on the processing

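In db/db+Aldo against sham hearts, the count of chaperone genes called lower was 19, and 17 to 20 when each library was left out in turn. The count called higher was 0, and it was 1 with a mean of at least 50, a robust prior, array weights, limma voom, no sex covariate, all 23 libraries in 1 fit (Hspb7 in each) or without the 5 libraries in doubt (Dnajb4); leaving out each library gave 0 to 1. The replicate block gave 18 lower and 0 higher, with Dnaja3 lost (−0.18, adjusted p = 0.114). Deviations of hearts with the same number correlated at −0.32 to 0.14 in this model, none best with its own number. Hearts numbered 1 to 4 and 6 differ in sex between the groups, which was not removed, so pairing is not settled here either. In the diet model, the replicate block changed no call (0 higher and 0 lower), and leaving out each library gave 0 to 3 lower, with 3 without HFD+L-NAME replicate 2. For the difference between models, 8 were lower, against 3 with no filter on the mean (551 of 31517 genes called) and 5 with no variance trend (660 of 13960). Total-count scaling gave 19 lower (189 of 1428 called genes higher, against 439 of 771). Leaving out each library gave 1 to 12 lower, where 499 to 1308 of all genes were called. In the diet model, leaving out a library from the sex by treatment fit leaves 1 heart of a sex in a group, assumed to vary like the others. Without HFD+L-NAME replicate 1 the treated male arm is replicate 2 alone, and the difference of Hsph1 was −1.89. Changes that were not called and turned sign were Hsf2 in db/db+Aldo (−0.06 with total-count scaling), Stip1 in HFD+L-NAME (0.00 with total-count scaling without the mitochondrial genome, 0.03 without the 5 libraries in doubt) and Hspb1 in HFD+L-NAME (−0.07 with array weights). Over single libraries left out, Dnaja2 ran from −0.05 to 0.01 in db/db+Aldo, and in HFD+L-NAME Stip1 ran from −0.24 to 0.13, Dnaja1 from −0.46 to 0.17 and Hspb1 from −0.31 to 0.28. Sex by treatment differences in the diet model ran from −5.25 to 0.28 for Hspa1a, −0.86 to 0.07 for Stip1, −0.86 to 0.13 for Chordc1, −1.28 to 0.29 for Dnaja1 and −1.06 to 0.16 for Dnajb1. The cause was not tested.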
